A study of Mus musculus with 4 samples.

Results

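The transcripts described here are 32 genes that mark 3 blood lineages, namely 14 neutrophil, 10 platelet and 8 erythroid genes, measured in hippocampus from mice exposed to repeated social defeat stress (R-SDS) and from control mice. They were chosen by name, as textbook markers of each lineage. Of the 32, 26 had a row of their own on the arrays (14 neutrophil, 7 platelet and 5 erythroid genes), out of 19938 genes in all. The R-SDS group held 2 male C57BL/6JJmsSlc mice of 11 to 12 weeks, which met an aggressive male of the ICR strain for 10 min a day over 10 days and otherwise lived beside such a male behind a divider. In the study, defeated mice used for the arrays are called susceptible, a class set by avoidance of an ICR male, whereas the sample labels give only the stress. The Control group held 2 male mice of the same strain and age, housed in pairs across a divider without defeat. By the study's schedule, hippocampus was collected some days after the last defeat, following tests of social interaction and sucrose preference. Total RNA of each dissected hippocampus was hybridised to Affymetrix Mouse Gene 1.0 ST arrays, and values are on the log2 scale.

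Whole hippocampus holds blood within its vessels, and the tissue protocol, in which fresh brains were cooled in saline before dissection, names no perfusion. Neutrophils are short-lived phagocytes that leave the bone marrow with granules already filled, and S100A8 and S100A9 make up much of the protein in their cytosol. Platelets are fragments of megakaryocytes, carry a limited set of messenger RNAs and store the chemokines PPBP and PF4. Red blood cells lose their nucleus, and the young ones among them, the reticulocytes, still hold abundant globin messenger RNA. In such bulk tissue, more cells of a lineage and more RNA per cell cannot be told apart. As a check of the tissue, all 10 hippocampal neuron markers lay in the upper part of the scale, above the median of the tested rows (6.55), while 25 of the 26 measured blood genes lay below that median and 10 of them below the lower quartile (4.99). The arrays give no detection call, so whether the dimmest of these genes were expressed cannot be told.

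The comparison asked which blood lineage, if any, was higher in the hippocampus of R-SDS mice. No lineage was higher as a whole in both R-SDS mice. Ppbp, a platelet chemokine gene, was the 1 member past the thresholds of the study (more than 0.5 apart on the log2 scale, at p below 0.05 before adjustment), at 0.78 on the log2 scale, or 1.71-fold. The erythroid genes Alas2 (1.75) and Slc4a1 (0.81), the neutrophil genes S100a8 (1.22) and S100a9 (0.65) and the platelet gene Gp9 (0.64) were higher by these log2 differences within replicate number 1, while within number 2 they differed by between -0.14 and 0.03. Rows shared by the copies of adult globin genes showed the largest values of this kind, at 1.91 to 2.19 within replicate number 1 and 0.32 to 0.44 within number 2. The granule protein genes made in the bone marrow (Ngp, Camp, Ltf, Elane, Mpo and Prtn3) had group means within 0.18 of each other, higher for some and lower for others.

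In limma with Benjamini-Hochberg adjustment over 21789 rows with a single gene symbol, 0 rows were higher and 0 lower at an adjusted p under 0.05 (0% of rows in each direction), and every member had an adjusted p of 1. At an unadjusted p under 0.05, limma counted 221 rows and 1 member, and the methods' t-test counted 440 rows and 1 member. At the thresholds of the study, 1 of the 26 members was higher, where 0.135% of all genes were, and 0 were lower, where 0.196% were. In 5 of 26 members (Ppbp, Tubb1, Slc4a1, Mpo and Klf1) both R-SDS arrays lay above both Control arrays, against 9.52% of all genes, and in 0 members both lay below, against 8.81% of all genes. The group mean was higher in R-SDS mice for 18 of 26 members, against 53.5% of all genes, and 8 of 26 were higher within both replicate numbers, against 27.8% of all genes. The median log2 difference was 0.13 over the members and 0.01 over all genes.

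The spread of values on an array went with its replicate number (interquartile ranges of 3.37 for R-SDS 1 and 3.34 for Control 1, but 3.11 for R-SDS 2 and 3.06 for Control 2), so differences within each number are given as well. Within number 1, 7 of 26 members were higher in the R-SDS mouse by over 0.5, against 2.36% of all genes. Within number 2, 2 of 26 were (Ppbp and Lyz2), against 0.537% of all genes, and these same 2 were higher by over 0.5 within both numbers, against 0.0652% of all genes. R-SDS 1 exceeded each of the other arrays by over 0.5 in 4 members (Alas2, Lyz2, S100a8 and Ppbp), against 1.08% of all genes, and was the highest array in 11 of 26, against 29.9% of all genes. The members were listed with earlier results of these arrays known, so these shares describe the list and are no test of it.

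**Figure D1:**
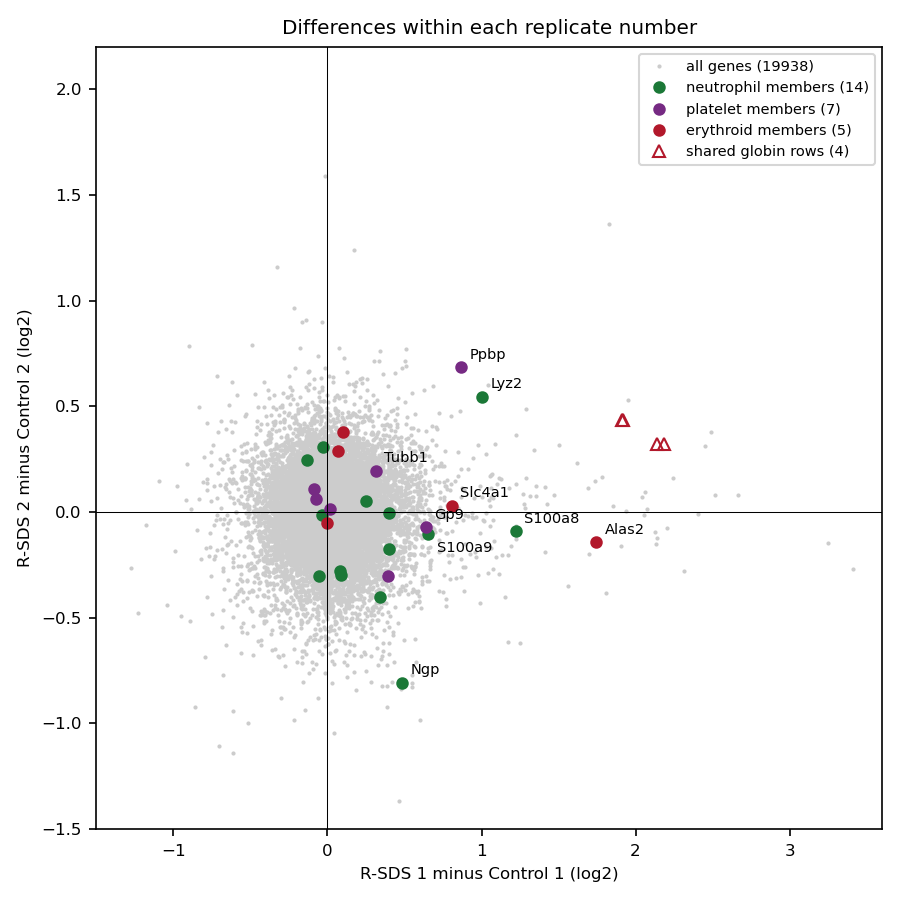
Log2 difference of R-SDS 1 minus Control 1 (horizontal axis) against that of R-SDS 2 minus Control 2 (vertical axis) for all genes (grey), the 26 measured members (filled circles, by lineage) and the 4 rows shared by globin copies (open triangles); 2 genes lie outside the plotted range. Ppbp and Lyz2 lie above 0.5 on both axes, while Alas2, S100a8 and the globin rows lie far to the right.

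Among the platelet genes, Ppbp (Cxcl7) encodes the precursor of a chemokine that platelets release from their alpha granules and that attracts neutrophils through CXCR2. It measured 5.48 in R-SDS 1 and 4.96 in R-SDS 2, against 4.61 in Control 1 and 4.28 in Control 2. Both R-SDS values were above both Control values, with means of 5.22 ± 0.37 in R-SDS mice and 4.44 ± 0.24 in Control mice (SD, n = 2 each). The log2 difference was 0.78 (SE 0.22), with an unadjusted p of 0.0119 and an adjusted p of 1 in limma. It was 0.87 within number 1 and 0.68 within number 2. Without R-SDS 1 it was 0.52, and without R-SDS 2 it was 1.04. Ppbp did not pass the thresholds of the study without Control 2, where the difference was 0.61, nor with the methods' t-test. Averaged over the arrays, Ppbp was dimmer than 3 in 4 of the tested rows.

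Pf4 (Cxcl4) is the neighbouring gene on chromosome 5 and encodes platelet factor 4, which is stored in the same granules. Pf4 measured 5.36 in R-SDS 1 and 4.94 in R-SDS 2, against 4.97 in Control 1 and 5.24 in Control 2, so that the groups overlapped. Its log2 difference was 0.04 (SE 0.19), and it was 0.39 within number 1 and -0.30 within number 2. The 250 bases before the start of both genes are shown because these neighbours of like function differed in their values (RefSeq, GRCm38.p6, plus strand, chr5:90768268-90768517 for Ppbp and chr5:90772185-90772434 for Pf4). Capitals mark matches, on either strand, to the GATA letters AGATAA or TGATAA, to the CACCC box CCACCC, to the C/EBP letters TTNNGNAA and to the ETS letters AGGAAG.
Ppbp: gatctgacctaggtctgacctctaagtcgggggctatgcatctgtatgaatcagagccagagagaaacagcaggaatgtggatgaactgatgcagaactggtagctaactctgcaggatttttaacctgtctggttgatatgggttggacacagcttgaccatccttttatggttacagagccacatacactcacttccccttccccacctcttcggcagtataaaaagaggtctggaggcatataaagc
Pf4: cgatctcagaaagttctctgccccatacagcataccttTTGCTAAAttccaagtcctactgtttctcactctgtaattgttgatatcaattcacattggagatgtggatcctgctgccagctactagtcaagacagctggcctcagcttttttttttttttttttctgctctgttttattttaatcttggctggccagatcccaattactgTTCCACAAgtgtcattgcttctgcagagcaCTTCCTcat
The window of Ppbp held 0 matches to these letters and that of Pf4 held 2 to C/EBP and 1 to ETS. Among all 32851 promoters of the table, 16.6% held the GATA letters, 28.1% the CACCC box, 36.8% the C/EBP letters and 29.5% the ETS letters. A match describes the letters and not a bound site.

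Tubb1 encodes the beta-tubulin of the ring of microtubules that gives platelets their disc shape. It measured 6.71 in R-SDS 1 and 6.71 in R-SDS 2, against 6.40 in Control 1 and 6.51 in Control 2. The R-SDS arrays were above both Control arrays, with a log2 difference of 0.25 (SE 0.13, unadjusted p of 0.0990 and adjusted p of 1 in limma). It was 0.31 within number 1 and 0.20 within number 2, and between 0.20 and 0.31 whichever array was left out.

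The adhesion receptor genes of platelets gave no such picture. Gp9, a subunit of the receptor for von Willebrand factor, measured 6.11 in R-SDS 1 and 5.66 in R-SDS 2, against 5.47 in Control 1 and 5.73 in Control 2, and only R-SDS 1 stood above the rest. Gp5, of the same receptor, measured 5.41 and 5.56 in R-SDS mice against 5.49 and 5.50 in Control mice. Itga2b, the integrin subunit that binds fibrinogen and defines the megakaryocyte lineage, measured 5.49 and 5.57 in R-SDS mice against 5.48 and 5.55 in Control mice. Treml1, a receptor kept in the alpha granules, measured 6.16 and 6.60 against 6.25 and 6.49. The log2 differences of Gp5 (-0.01), Itga2b (0.01) and Treml1 (0.01) were smaller than their standard errors (0.13, 0.13 and 0.19), and that of Gp9 was 0.28 (SE 0.20). Gp1ba and Gp6 had no row listed, and the row of Gp1bb is shared with Septin5. Without a row of their own, these 3 members were not analysed. Over the 7 measured platelet genes the median log2 difference was 0.04, and it was 0.31 within number 1 and 0.06 within number 2.

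Of 20 other platelet genes, 18 were measured, 12 with a higher and 6 with a lower group mean after R-SDS (median 0.08). The largest differences were those of F5, coagulation factor V (1.01, SE 0.71), and Vwf, the von Willebrand factor gene of endothelium and platelets (0.67, SE 0.17). Vwf was the 1 gene of the list past the thresholds of the study, with an unadjusted p of 0.0078 in limma. Its groups did not overlap (7.19 in R-SDS 1 and 6.79 in R-SDS 2, against 6.33 in Control 1 and 6.31 in Control 2). F5 measured 6.59 in R-SDS 1, but 4.16 in R-SDS 2, against 4.46 in Control 1 and 4.28 in Control 2. It differed by 2.14 within number 1 and -0.12 within number 2, where the choroid plexus markers described below had medians of 2.26 and -0.04. The part of choroid plexus in the value of F5 was not tested. The 13 measured endothelial markers include Vwf itself, which had the largest difference among them, so their figures partly restate its value. Their median was 0.14, and 9 of 13 had a higher group mean after R-SDS (53.5% of all genes did). Their summed level (unlogged) stood at 3891 for R-SDS 1, 3120 for R-SDS 2, 3264 for Control 1 and 2837 for Control 2. The part of endothelium in the value of Vwf was not tested. Itgb3, the partner of Itga2b, differed by 0.13 (SE 0.19). Of the 12 genes of platelet receptor signalling, 11 were measured and 0 passed the thresholds of the study, with a median of 0.10. Fcer1g, the signalling chain of the collagen receptor, led this list at 0.22 (SE 0.14), followed by the adaptor gene Lat at 0.17 (SE 0.23), and microglia express Fcer1g as well.

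**Figure D2:**
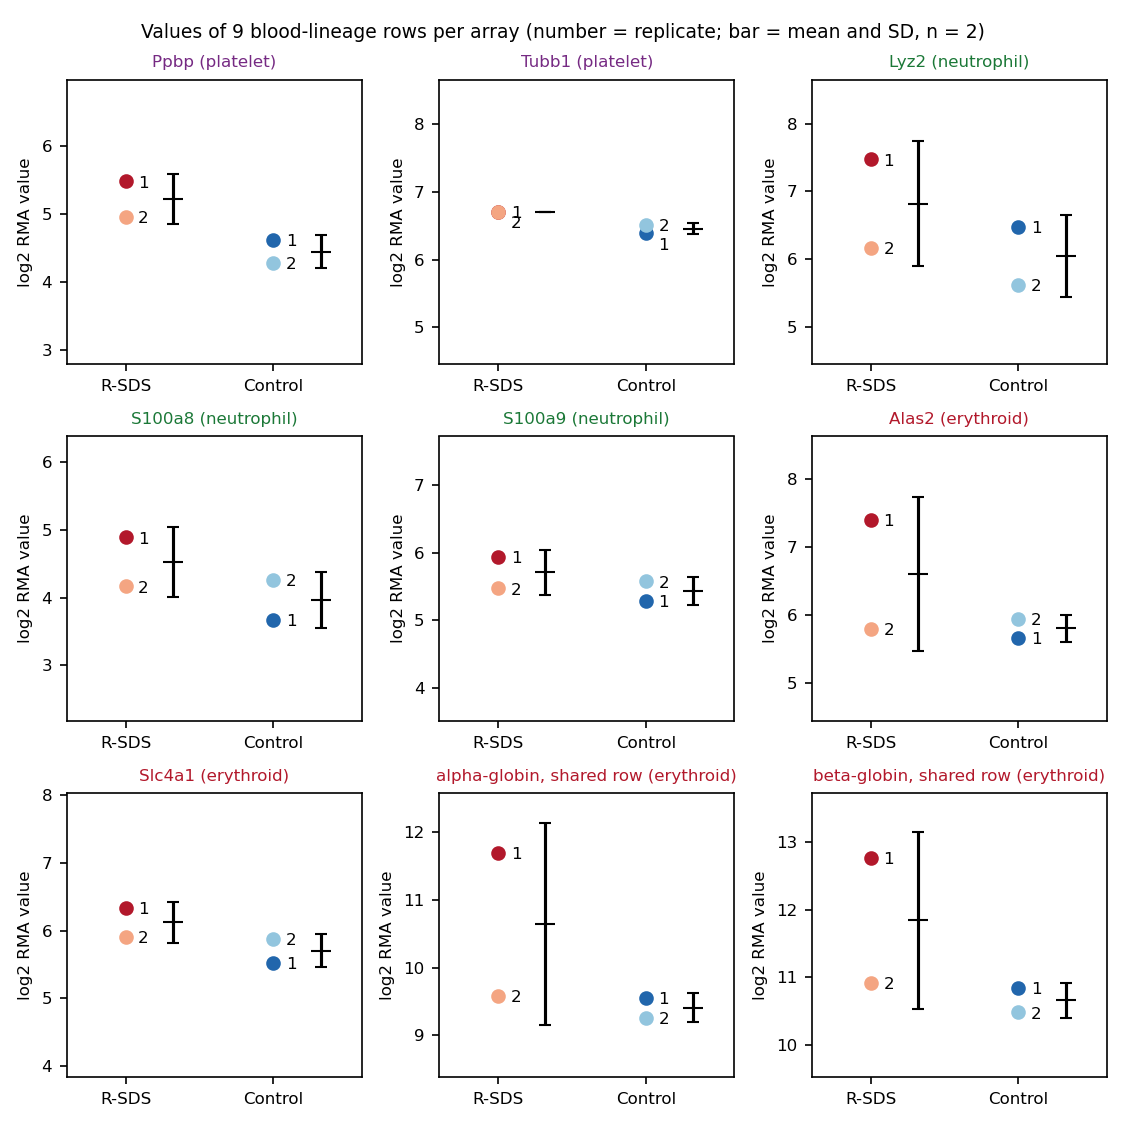
Values of 7 member genes and 2 rows shared by globin copies (log2 RMA, vertical axes of equal span) in R-SDS and Control mice; points are arrays, marked by replicate number, and bars give mean and SD (n = 2). Both R-SDS points lie above both Control points for Ppbp, Tubb1, Slc4a1 and the globin rows, while for Alas2, S100a8 and S100a9 only R-SDS 1 stands above the rest.

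Among the erythroid genes, Alas2 encodes the erythroid form of the first enzyme of haem synthesis. Alas2 measured 7.41 in R-SDS 1 and 5.80 in R-SDS 2, against 5.66 in Control 1 and 5.94 in Control 2. R-SDS 1 was 3.35-fold above Control 1, whereas R-SDS 2 lay between the Control arrays. The means were 6.60 ± 1.14 in R-SDS mice and 5.80 ± 0.20 in Control mice (SD, n = 2 each), and the log2 difference of 0.80 (SE 0.49, unadjusted p of 0.149 and adjusted p of 1 in limma) was within the spread of the R-SDS mice. Without R-SDS 1 it was -0.0022. Without R-SDS 2 it was 1.61, and Alas2 then passed the adjusted p in limma (adjusted p = 0.0108), with the lone R-SDS array assumed to vary like the Control arrays; over the other alternatives its adjusted p ranged between 0.960 and 1. The 250 bases before the start of Alas2 are shown as those of the erythroid member that differed most (RefSeq, GRCm38.p6, plus strand, chrX:150547167-150547416), with the same motifs in capitals.
Alas2: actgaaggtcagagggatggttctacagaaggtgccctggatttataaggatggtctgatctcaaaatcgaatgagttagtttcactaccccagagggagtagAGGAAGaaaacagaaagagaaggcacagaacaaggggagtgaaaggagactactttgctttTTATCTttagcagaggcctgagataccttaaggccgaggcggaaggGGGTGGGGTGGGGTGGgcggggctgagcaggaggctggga
The window held 1 match to GATA (81 to 86 bases before the start, on the opposite strand), 3 to the CACCC box that adjoin with 1 base in common between neighbours (25 to 40 bases before the start) and 1 to ETS. All 5 erythroid members with a promoter in the table (Alas2, Epb42, Hba-a1, Klf1 and Rhag) held the GATA letters, against 3 of 10 platelet and 2 of 13 neutrophil members and 16.6% of all promoters.

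Slc4a1 encodes band 3, the anion exchanger of the red cell membrane. It measured 6.34 in R-SDS 1 and 5.90 in R-SDS 2, against 5.53 in Control 1 and 5.87 in Control 2. The R-SDS arrays were above both Control arrays, but R-SDS 2 exceeded Control 2 by only 0.03. The log2 difference was 0.42 (SE 0.20, unadjusted p of 0.0838 and adjusted p of 1 in limma), and it was 0.81 within number 1. Without R-SDS 1 it was 0.20.

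Hba-a1 and Hbb-b1, the adult globin genes, had no row of their own, since the annotation gives their rows jointly to near-identical copies. These rows fall outside the rule by which members were measured, were not tested, and cannot be assigned to 1 copy. The first of the 2 rows shared by the 2 adult alpha-globin copies measured 11.69 in R-SDS 1 and 9.58 in R-SDS 2, against 9.56 in Control 1 and 9.26 in Control 2. The first of the 2 rows shared by 4 adult beta-globin symbols measured 12.76 in R-SDS 1 and 10.92 in R-SDS 2, against 10.84 in Control 1 and 10.48 in Control 2. R-SDS 1 was thus 4.40-fold and 3.79-fold above Control 1, and R-SDS 2 was 1.25-fold and 1.35-fold above Control 2. R-SDS 2 was close to Control 1 in both rows. The log2 differences of the group means lay between 1.18 and 1.26 over the 4 rows, and between 0.17 and 0.26 without R-SDS 1.

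Among the other erythroid members, Klf1 stood apart between the groups and Rhag and Epb42 did not. Klf1, the transcription factor that switches on adult globin genes, measured 4.28 in R-SDS 1 and 4.31 in R-SDS 2, against 4.18 in Control 1 and 3.94 in Control 2. Its R-SDS arrays were above both Control arrays by a log2 difference of 0.24 (SE 0.15), on a level below the lower quartile of the tested rows. Rhag, the Rh-associated glycoprotein gene, measured 3.14 and 3.49 in R-SDS mice against 3.08 and 3.20 in Control mice, at a level where the groups overlapped. Epb42, the gene of a protein of the red cell membrane skeleton, measured 4.29 and 4.45 in R-SDS mice against 4.29 and 4.50 in Control mice. Ahsp, the alpha-globin chaperone, had no row listed and was not analysed. The median log2 difference of the 5 measured erythroid genes was 0.24, and it was 0.10 within number 1 and 0.03 within number 2, so that the median does not carry the high values of Alas2 and Slc4a1 in R-SDS 1.

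Of 31 other erythroid genes, 25 were measured, 16 higher and 9 lower by group mean, with a median of 0.02 and 0 past the thresholds of the study. The largest differences were those of Tspo2, a membrane protein gene of erythroid cells (0.33, SE 0.20), and the embryonic globin gene Hbb-y (-0.24, SE 0.14). Tspo2 measured 5.36 in R-SDS 1 and 5.04 in R-SDS 2, against 4.64 in Control 1 and 5.09 in Control 2, so that R-SDS 1 was highest here too. The 7 measured genes of haem synthesis that all cells use had a median of 0.02, with Cpox at 0.09 and Alas1, the housekeeping counterpart of Alas2, at 0.07 (SE 0.15). For the clearance of haem and haemoglobin, 10 genes were measured, 5 higher and 5 lower, led by the ferritin light chain gene Ftl1 (0.19, SE 0.15) and the iron exporter gene Slc40a1 (-0.18), while Hmox1, haem oxygenase, differed by 0.06 (SE 0.18).

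**Figure D3:**
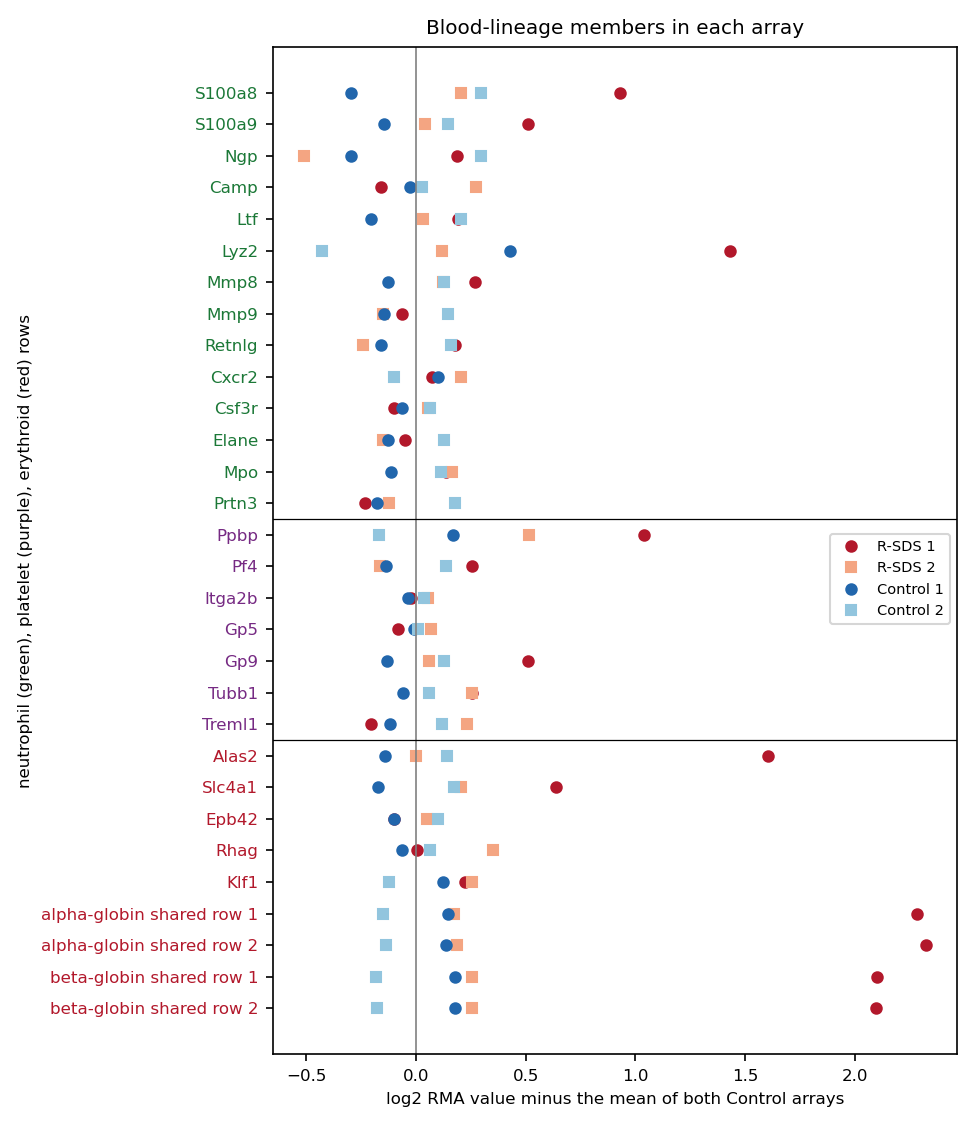
Distance of each array from the Control mean (horizontal axis, log2 scale) for the 26 measured members and the 4 rows shared by globin copies (rows, by lineage), with 1 symbol per array. R-SDS 1 stands far to the right for the globin rows, Alas2 and Lyz2 and less so for Ppbp and S100a8, while most other members keep within 0.5 of the Control mean.

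Among the neutrophil genes, S100a8 and S100a9 encode the paired calcium-binding proteins of calprotectin. S100a8 measured 4.89 in R-SDS 1 and 4.16 in R-SDS 2, against 3.67 in Control 1 and 4.26 in Control 2. R-SDS 1 was 2.33-fold above Control 1, and R-SDS 2 lay between the Control arrays. S100a9 measured 5.94 in R-SDS 1 and 5.47 in R-SDS 2, against 5.29 in Control 1 and 5.58 in Control 2, with R-SDS 1 again the highest and R-SDS 2 again between the Control arrays. The log2 differences were 0.57 for S100a8 (SE 0.30) and 0.28 for S100a9 (SE 0.20), both with an adjusted p of 1 in limma, and without R-SDS 1 they were 0.20 and 0.04. The 250 bases before the start of S100a8 are shown as those of the neutrophil member with the largest difference within number 1 (RefSeq, GRCm38.p6, plus strand, chr3:90668821-90669070), with the same motifs in capitals.
S100a8: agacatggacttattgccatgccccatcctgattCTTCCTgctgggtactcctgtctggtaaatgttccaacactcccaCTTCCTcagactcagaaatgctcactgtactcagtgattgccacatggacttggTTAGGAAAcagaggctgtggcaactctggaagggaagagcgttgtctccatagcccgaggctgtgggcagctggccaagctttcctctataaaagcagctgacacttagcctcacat
The window held 1 match to C/EBP (110 to 117 bases before the start) and 2 to ETS. C/EBP letters stood in 7 of 13 neutrophil, 4 of 10 platelet and 4 of 5 erythroid members with a promoter and in 36.8% of all promoters. ETS letters stood in 10 of 13 neutrophil, 6 of 10 platelet and 1 of 5 erythroid members and in 29.5% of all promoters.

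Lyz2 encodes lysozyme of neutrophils, monocytes and macrophages. It measured 7.47 in R-SDS 1 and 6.16 in R-SDS 2, against 6.47 in Control 1 and 5.62 in Control 2. The groups overlapped, since R-SDS 2 lay below Control 1, but the R-SDS mouse was higher within both numbers, by 1.00 and by 0.55. The log2 difference was 0.77 (SE 0.47, unadjusted p of 0.147 and adjusted p of 1 in limma), and without R-SDS 1 it was 0.12. Among 8 markers of the macrophages at the borders of the brain, 7 were higher by group mean (53.5% of all genes were), with a median of 0.16, and in 5 both R-SDS arrays were above both Control arrays (9.52% of all genes), led by Cbr2 (0.43, SE 0.16) and the mannose receptor gene Mrc1 (0.36, SE 0.25). Summed and unlogged, they reached 332 in R-SDS 1 and 275 in R-SDS 2, against 268 in Control 1 and 240 in Control 2, and their part in the value of Lyz2 was not tested. The 9 measured microglia markers had a median of 0.02, led by C1qb and C1qa (0.16 each), and Cx3cr1 measured 8.15 and 8.14 in R-SDS mice against 8.15 and 8.14 in Control mice.

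The granule genes varied among themselves. Of the primary granule enzymes, Mpo, myeloperoxidase, measured 5.24 and 5.27 in R-SDS mice against 4.995 and 5.22 in Control mice. Its R-SDS arrays were above both Control arrays by a log2 difference of 0.15 (SE 0.14), while neutrophil elastase (Elane, -0.10, SE 0.15) and proteinase 3 (Prtn3, -0.18, SE 0.17) had lower means and overlapping groups. Of the secondary granules, Ngp, neutrophilic granule protein, measured 3.80 in R-SDS 1 and 3.11 in R-SDS 2, against 3.32 in Control 1 and 3.91 in Control 2, with opposite directions within the numbers (0.49 and -0.81). Lactoferrin (Ltf, 0.11, SE 0.18) and cathelicidin (Camp, 0.06, SE 0.18) differed by less than their standard errors, Ltf being higher within number 1 (0.40) and lower within number 2 (-0.18), as Ngp was, and Camp the reverse (-0.13 and 0.25). Of the collagenase and gelatinase genes, Mmp8 differed by 0.20 (SE 0.15), with 0.40 within number 1 and -0.0031 within number 2, and Mmp9 by -0.11 (SE 0.15).

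The receptors that bring neutrophils out of the marrow and into tissue did not differ beyond their errors. Csf3r, the G-CSF receptor, measured 5.92 and 6.08 in R-SDS mice against 5.96 and 6.09 in Control mice. Cxcr2, the receptor of PPBP and other chemokines, measured 2.75 and 2.88 in R-SDS mice against 2.78 and 2.58 in Control mice, near the lower end of the scale. Retnlg, a resistin-like gene of mature neutrophils, measured 4.56 and 4.14 against 4.22 and 4.54. Over the 14 neutrophil genes the median log2 difference was 0.08, and it was 0.29 within number 1 and -0.10 within number 2.

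Of 24 other neutrophil genes, 22 were measured, 13 with a higher and 9 with a lower group mean, with a median of 0.03. Lcn2, lipocalin 2, which neutrophils store in secondary granules and which several brain cell types also make, was the 1 gene of this list past the thresholds of the study, with 7.80 in R-SDS 1 and 6.47 in R-SDS 2, against 4.57 in Control 1 and 4.56 in Control 2. Its log2 difference was 2.57 (SE 0.40, unadjusted p of 0.00066 in limma), with 3.23 within number 1 and 1.91 within number 2. Like every other row, it did not pass the adjusted p in limma. The companions of Lcn2 in the secondary granules, Ltf, Camp and Ngp, differed by 0.40, -0.13 and 0.49 within number 1 and by -0.18, 0.25 and -0.81 within number 2. The next largest difference of the list was that of Clec4e, an inflammatory lectin receptor (-0.43, SE 0.24), whose groups overlapped. Of 9 measured genes of ligands that recruit or raise neutrophils, 0 separated the groups (9.52% of all genes lay above and 8.81% below). Cxcl3 at -0.22 (SE 0.17) and Tnf at 0.22 (SE 0.20) stood at the ends. Of 5 receptors and partners of S100A8 and S100A9, Myd88 was above the Control arrays in both R-SDS mice (6.69 and 6.80, against 6.46 and 6.37, a log2 difference of 0.33, SE 0.13, with an adjusted p of 1 in limma), followed by Ly96 at 0.18 with overlapping groups.

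Markers of the other blood lineages gave the following picture. Group means of all 8 measured monocyte markers were higher after R-SDS (53.5% of all genes were), with a median of 0.19, which was 0.34 within number 1 and 0.07 within number 2. In 2 of them both R-SDS arrays were above both Control arrays (9.52% of all genes). The largest difference was that of Ace (1.06, SE 0.78), which the choroid plexus also expresses and which measured 9.10 in R-SDS 1 and 6.49 in R-SDS 2, against 7.06 in Control 1 and 6.42 in Control 2. Next came Ms4a4c (0.44, SE 0.15), on a level below the lower quartile. The medians were -0.03 for 11 T cell, -0.10 for 9 B cell, -0.01 for 9 NK cell and -0.02 for 9 mast cell, basophil and eosinophil markers, and 0 of these genes passed the thresholds of the study. The largest differences in either direction were those of Cd3g (0.21) and Cd2 (0.19) of T cells, of which 7 of 11 markers had a lower mean, Ms4a1 (0.32) and Fcrla (-0.24) of B cells, Klrb1c (0.38) and Eomes (-0.14) of NK cells, and the mast cell and basophil protease genes Mcpt8 (-0.26) and Mcpt4 (-0.14).

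R-SDS 1 also stood apart in markers of choroid plexus, a vascular tissue whose epithelium makes cerebrospinal fluid. Of 14 choroid plexus markers, 12 were measured, and all 12 were higher in R-SDS 1 than in each other array by over 0.5. Their median log2 difference was 2.26 within number 1 and -0.04 within number 2, and summed and unlogged they reached 14062 in R-SDS 1 and 966 in R-SDS 2, against 3372 in Control 1 and 680 in Control 2. Kcnj13, a potassium channel gene of this epithelium, measured 10.75 in R-SDS 1 and 5.56 in R-SDS 2, against 7.34 in Control 1 and 5.83 in Control 2. Ttr, the transthyretin gene, differed by 1.83 and 1.36 within the numbers, with overlapping groups. The values of Alas2, the globin rows, S100a8, S100a9, Slc4a1, Lyz2, Ppbp and Gp9 were thus highest in the array with the most choroid plexus RNA. That array was the highest in 11 of 26 members in all, against 29.9% of all genes. Over the 4 arrays Lyz2 ran in the same order as the summed choroid plexus level. Control 1 had a higher summed level than R-SDS 2, with Ttr at 11.38 against 8.79, but the median of the markers was 5.54 in both. Alas2, S100a8, S100a9, Slc4a1, Ppbp and Gp9 were lower in Control 1 than in R-SDS 2. The first alpha-globin row was nearly level in these arrays (9.58 in R-SDS 2 and 9.56 in Control 1). The part of choroid plexus tissue in the values of the blood genes was not tested.

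**Figure D4:**
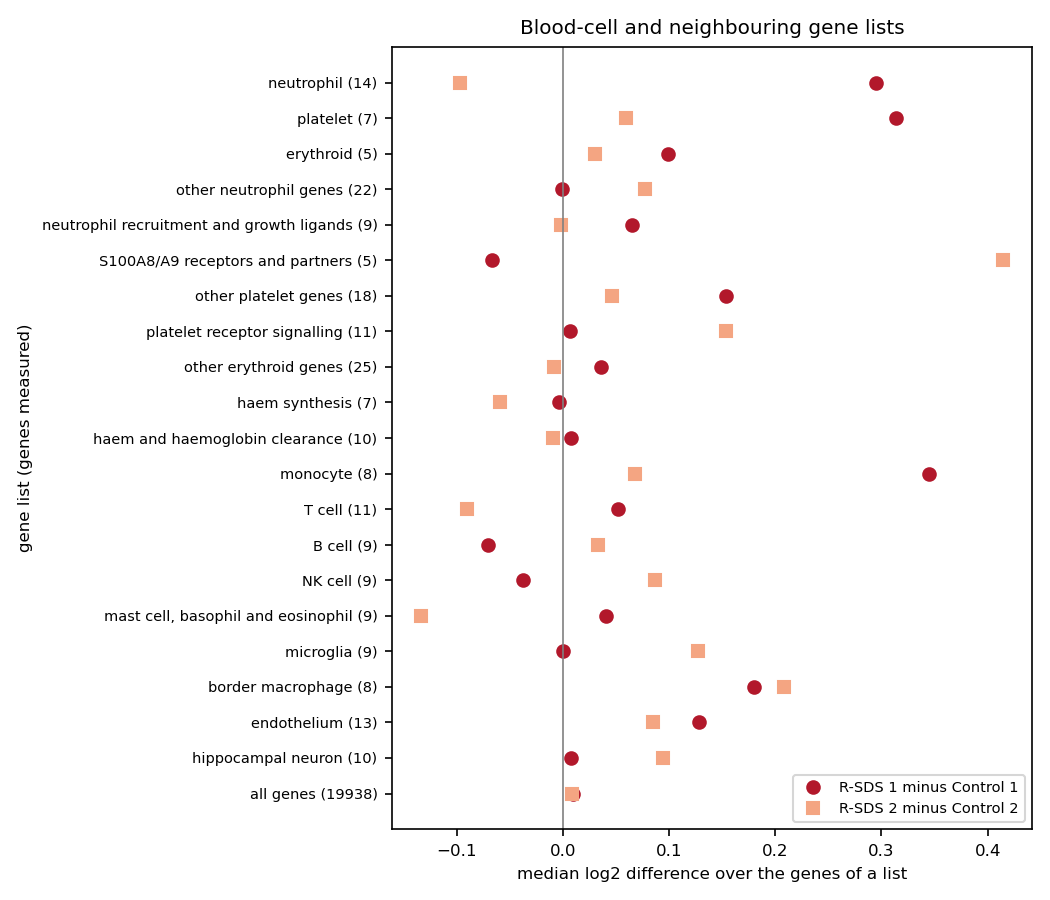
Median log2 difference over the genes of each list (horizontal axis) within replicate number 1 (circles) and number 2 (squares), with the number of measured genes in brackets; the choroid plexus list, at 2.26 and -0.04, is left out. The neutrophil, platelet and monocyte medians lie near 0.3 within number 1 and near 0 within number 2, and the T, B and NK cell lists stay within 0.1 of 0, while the S100A8 and S100A9 receptor list reaches 0.41 within number 2.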

How the data were processed

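Total RNA of hippocampus from 2 R-SDS and 2 Control mice was hybridised to 1 array per mouse. The authors summarised and normalised the arrays by RMA (Expression Console), and the deposited values are on the log2 scale; how arrays were grouped for normalisation and the genome build are not given in the sources used here. Sample titles gave groups and replicate numbers. The methods name 2 mice for R-SDS, but the labels do not name separate animals, so p-values reflect only how far these samples vary. Precision is limited by having 4 arrays. Of 35556 rows, 21789 carried 1 gene symbol (19938 genes) by the platform table, 1621 carried several and 12146 were not named there. Through their Entrez identifiers (99.6% matched to RefSeq, GRCm38.p6), 0 symbols changed. Each gene was represented by its row with the highest mean; every measured member had a single row.

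Group differences were tested in limma 3.58.1 (R 4.3.3) (two-sided, 2 residual and 4.07 prior degrees of freedom, no filter), with Benjamini-Hochberg adjustment over all 21789 rows. Other lists are described by counts and medians, naming the 2 genes with the largest difference of each; other genes with values were named after these were seen. The procedure was tested on simulated data. Members and lists were chosen with earlier results of these data known. The alternatives were the methods' t-test, a replicate block, an intensity trend, 2 scalings, a filter on dim rows, the mean of a gene's rows and leaving out each array. Promoter windows came from RefSeq (GRCm38.p6) for 28 of 32 members. Plots were drawn with matplotlib 3.10.9.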

Additional observations from a re-analysis of the deposited data

Results flagged for a closer look

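Rows that the annotation gives to several globin copies lie outside the rule for members and were not tested, but their values stood above both Control arrays in R-SDS 1. The 2 alpha-globin rows measured 11.69 and 11.49 in R-SDS 1 and 9.58 and 9.35 in R-SDS 2; Control 1 had 9.56 and 9.30, and Control 2 had 9.26 and 9.03. The 2 beta-globin rows measured 12.76 and 12.60 in R-SDS 1 and 10.92 and 10.76 in R-SDS 2; Control 1 had 10.84 and 10.69, and Control 2 had 10.48 and 10.33. Rows of the same globin are named for the same copies, so they are not separate evidence of the value in R-SDS 1. A check for arrays far from their group could not be made with 2 arrays in a group.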

How the results depend on the processing

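Of the 26 members, 12 kept the direction of their difference under every alternative tried, among them Ppbp, Lyz2, Tubb1, S100a8, S100a9, Gp9, Slc4a1 and Klf1. The direction of 14 turned when a single array was left out, with these lowest and highest differences: Alas2 (-0.00215 to 1.61), Camp (-0.16 to 0.27), Csf3r (-0.10 to 0.0528), Elane (-0.23 to 0.0311), Epb42 (-0.13 to 0.0762), Gp5 (-0.0821 to 0.0692), Itga2b (-0.0245 to 0.0544), Ltf (-0.10 to 0.32), Mmp9 (-0.25 to 0.0418), Ngp (-0.51 to 0.19), Pf4 (-0.17 to 0.25), Prtn3 (-0.36 to 0.000958), Retnlg (-0.24 to 0.18) and Treml1 (-0.21 to 0.23). After a further quantile normalisation Epb42 (0.0113), Gp5 (0.0203) and Retnlg (0.0080) also turned, as did Gp5 (0.0103) after median centring, which moved the median of all genes to 0.0256, from 0.0089 as deposited. Leaving out an array, the median of the neutrophil members ranged from -0.0297 to 0.16, that of the platelet members from -0.0158 to 0.25 and that of the erythroid members from 0.20 to 0.25. The lowest neutrophil and platelet values came without Control 1, and the platelet median was 0.18 without Control 2. The number of members past the thresholds of the study stayed at 1 after quantile normalisation and after median centring. It was 0 with the methods' t-test and 0 among rows above the median level, where Ppbp was not kept. Leaving out an array leaves 1 array in a group, and rows past these thresholds then rose in number (given below). Members past them are therefore not counted for these fits. Without R-SDS 2, the differences of S100a8, S100a9, Lyz2, Ppbp, Gp9, Alas2 and Slc4a1 lay between 0.51 and 1.61. Without R-SDS 1, the differences of these same members lay between -0.0022 and 0.52. Members with both groups apart numbered 7 to 13 above and 0 to 7 below without an array. Fewer arrays to compare raise such counts across all genes, and no share of all genes was counted beside them. They are therefore no result about the members. Among rows over the median level, 1 member lay above. After quantile normalisation 1 member lay below, as after median centring. At the adjusted p, 0 to 1 members, 0 to 46 rows higher and 0 to 3 rows lower were called without an array, and 1 row lower after median centring. Over all rows, the thresholds of the study gave 32 higher and 42 lower, 6 and 13 with the methods' t-test, 5 and 1 among rows above the median level, where the median of the platelet members left (Tubb1 alone) was 0.25, and 74 to 416 and 67 to 323 without an array. The cause of these shifts was not tested. For the shared globin rows, which were given these alternatives after their values were seen, the differences were 0.17 to 0.26 without R-SDS 1 and 2.09 to 2.32 without R-SDS 2.

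Labels do not say whether replicate numbers pair the mice. The deviations of R-SDS 1 and Control 1 from their group means correlated at 0.517 over 21789 rows, which are not independent. With the replicate number as a block (1 residual degree of freedom), 1047 of 21789 rows and 3 of 26 members had an unadjusted p under 0.05 in limma. Without it 221 rows and 1 member did. A share of rows near 0.05 falls under this threshold with no difference at all, and the count with the block is near that share. At the thresholds of the study 54 of 21789 rows were then higher and 46 lower, against 32 and 42 without the block. Of the 26 members 2 passed, Ppbp and Lyz2, each with an adjusted p of 0.960 in limma.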
